A study of Drosophila melanogaster with 8 samples.

Results

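Eye-antennal discs that already overexpressed simjang (simj) were compared with discs that overexpressed simj together with vestigial (vg), to ask what adding vg changed. Both groups carried the eyeless driver ey-GAL4 and UAS-simj. The discs called simj here had the genotype ey-GAL4 UAS-lacZ UAS-simj, and the discs called vg_simj had ey-GAL4 UAS-vg UAS-simj, so UAS-vg took the place of the UAS-lacZ copy. The count of UAS-lacZ copies, 1 in simj and 0 in vg_simj, cannot be told apart from the presence of vg. All discs came from wandering larvae of the third instar, and each sample was RNA pooled from 100 pairs of whole eye-antennal discs. The comparison used 4 of the 8 arrays in the series, the 2 titled with vg and simj and the 2 titled with lacZ and simj. Of 18769 probe sets that were not array controls, 9565 were measured, those with a signal higher than the array median on 2 or more of these 4 arrays. They held 8307 probe sets with 1 gene symbol, standing for 7661 genes. The other groups, lacZ (ey-GAL4 with 2 UAS-lacZ transgenes) and vg (ey-GAL4, UAS-vg and UAS-lacZ), entered the shared estimate of the spread and gave the effect of vg without simj.

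The eye-antennal disc is the larval epithelium that forms the adult eye, antenna and head capsule. The gene vg encodes a transcriptional cofactor that acts with the DNA-binding protein Scalloped and selects wing identity in the wing disc, and misexpressed vg is known for inducing wing tissue in other discs. The gene simj encodes the p66 subunit of NuRD, a complex that remodels nucleosomes and removes acetyl groups from histones. Because ey-GAL4 is driven by an eyeless enhancer, its activity starts in the eye primordium, and whole discs hold cells both with and without the driver.

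Signals were MAS5 intensities on a linear scale, with the trimmed mean of each array set to 500 and array medians from 36.5 to 46.3. The 2 simj arrays correlated at 0.972 and the 2 vg_simj arrays at 0.968 across probe sets on the log2 scale, and arrays of the 2 groups at 0.932 to 0.952, across genes, which are not independent replicates. The eye genes eya and toy, the neuronal gene elav and the antennal gene ss had signals above the array median on all 4 arrays, so genes that mark the labelled tissue were present. Changes are log2(signal + 2.8) of vg_simj minus simj with their standard error, from limma over 8 arrays with Benjamini-Hochberg adjustment over the 9565 probe sets, and a probe set was called at an adjusted p under 0.05. With 2 arrays per group an exact permutation test cannot give a p below 0.333, so calls rest on a variance estimate pooled over genotypes and moderated across probe sets.

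The transgenes gave the first check of the labels. The vg signal was 16.6 and 22.2 on the simj arrays and 401 and 432 on the vg_simj arrays, a change of 4.25 ± 0.27 (SE, n = 2 and 2, limma adjusted p = 0.000352). The groups lay far apart, and the vg arrays, at 234 and 259, were between them. A second vg probe set rose by 5.63 ± 0.49, from 9.9 and 2.5 to 378 and 428. The simj signal was 1260.3 and 1063 on the simj arrays and 1077 and 912 on the vg_simj arrays, so the groups overlapped, and its change of -0.22 ± 0.22 was not called (adjusted p = 0.623). The signals of simj on the lacZ arrays, 479 and 727, were lower than on any of these 4 arrays. The gene ey, from which the driver was made, stood at 335 and 354 in simj and 551 and 682 in vg_simj without overlap (change 0.83 ± 0.19, adjusted p = 0.0914, not called).

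More genes fell than rose when vg was added to simj discs. Of the 9565 probe sets limma called 136 (1.42%), of which 34 rose (0.355%) and 102 fell (1.07%), and these stood for 113 named genes, 29 higher and 84 lower. The remaining calls included 19 probe sets with no single gene symbol. On all 136 the 2 groups did not overlap, which was also true of 27.9% of all probe sets in the higher direction and 22.2% in the lower. The median change was 1.55 over the called rises and -1.87 over the called falls, beside 0.05 over all probe sets, of which 55.9% had a positive and 44.1% a negative change. At an unadjusted p under 0.05 the counts were 773 higher and 930 lower. The count of calls depended on each of the 4 arrays compared: it was 39 without simj replicate 1, 28 without simj replicate 2, 42 without vg_simj replicate 1 and 43 without vg_simj replicate 2. A call described as lost without either array of a group was lost with each of them left out alone. Leaving out 1 array left its group with 1 array and the fit with fewer residual degrees of freedom. A lost call can therefore reflect lower precision and need not mark an unusual array. The fit lets the variance prior follow the mean signal, and with no such intensity trend 63 of the 136 calls were kept.

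**Figure D1:**
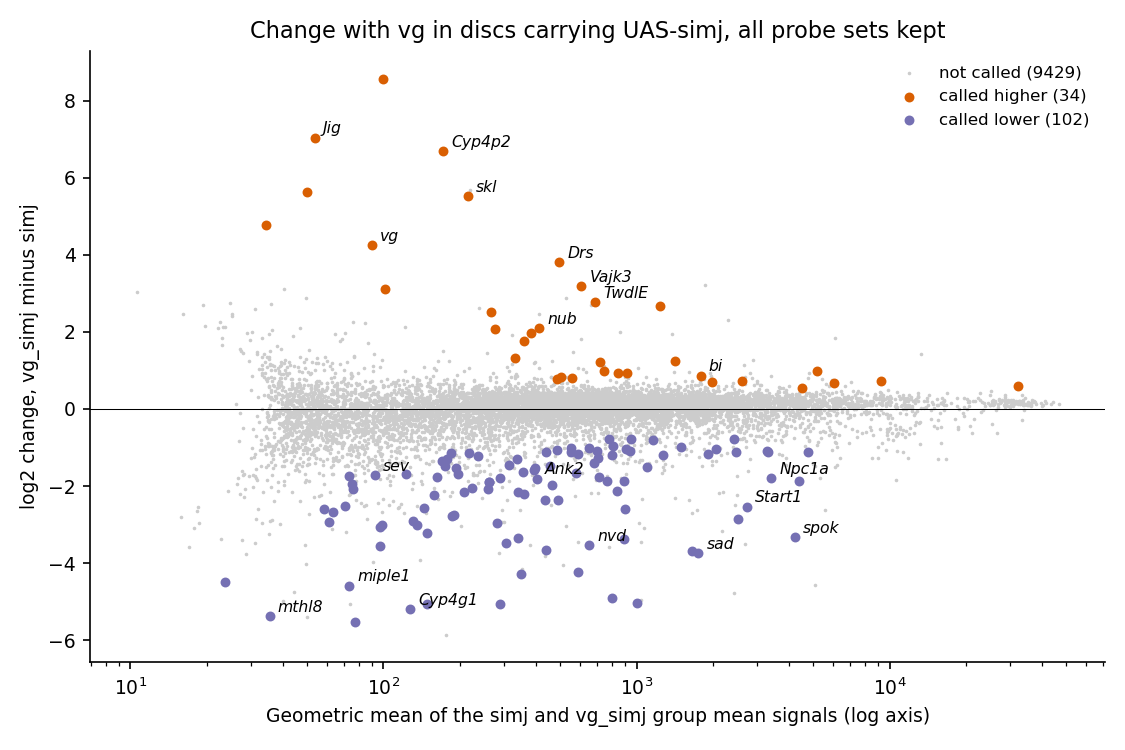
Log2 change of vg_simj minus simj (vertical axis, log2(signal + 2.8)) for 9565 probe sets. The horizontal log axis is the geometric mean of the simj and vg_simj group mean signals. The 34 called rises and 102 called falls are coloured, and selected called genes are labelled. Called falls outnumber called rises, and the cytochrome P450 gene Cyp4p2, at a change of 6.69, stands above nearly all other probe sets.

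The clearest rises were in genes near background on both simj arrays. Cyp4p2, skl, CG6912 and CG15236 were below the array medians there, 46.3 and 40.9. They passed the signal filter only through the vg_simj arrays. Any gene below the medians on both arrays of 1 compared group was tested only through the arrays of the other. Cyp4p2, a cytochrome P450 gene, had signals of 21.0 and 10.8 on the simj arrays and 1877 and 1825 on the vg_simj arrays (6.69 ± 0.31, adjusted p = 0.00011). The cell death activator skl (sickle, a relative of reaper) went from 40.0 and 21.5 to 1298 and 1708 (5.53 ± 0.30, adjusted p = 0.000187). Both genes were about as high on the vg arrays, Cyp4p2 at 1738 and 1771 and skl at 1054 and 1239, and low on the lacZ arrays. CG6912 rose from 32.0 and 34.0 to 257 and 361 (3.10 ± 0.25, adjusted p = 0.00155) and CG15236 from 10.2 and 1.5 to 207 and 199 (4.78 ± 0.58, adjusted p = 0.00917), again with high signals on the vg arrays. The lncRNA:CR32027, a gene outside the naming rule and chosen after its values were seen, rose by 1.96 ± 0.21 and was called. With 1 array left out at a time, Cyp4p2, skl and CG6912 kept their calls on each occasion, while CG15236 lost its call without either vg_simj array (adjusted p up to 0.102) and lncRNA:CR32027 without simj replicate 2 or either vg_simj array (up to 0.0735) and also with a filter above the 75th percentile of signals (adjusted p = 0.0679).

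Other rises reached signals on the vg_simj arrays that no other array showed. Vajk3 stood at 219 and 179 on the simj arrays and 1907 and 1773 on the vg_simj arrays (3.19 ± 0.33, adjusted p = 0.00611). Both vg_simj arrays were above all 6 others, where Vajk3 lay between 109 and 233. Vajk2, of the same family and named after its values were seen, rose on both of its probe sets, by 2.08 ± 0.17 (adjusted p = 0.00168) and 2.66 ± 0.29 (adjusted p = 0.00701). Drs, which encodes the antifungal peptide drosomycin, went from 137 and 98.3 to 3343 and 833 (3.81 ± 0.59, adjusted p = 0.0278), and Jig from 2.3 and 3.9 to 1435 and 411 (7.04 ± 0.97, adjusted p = 0.018). For Drs and Jig the vg_simj replicates lay far apart, although each was above every other array. The difference between the vg effects with and without simj was tested for each of these genes, and none was called (adjusted p of that difference 0.414 for Vajk3, 0.140 and 0.507 for Vajk2). Of the 34 called rises, 22 had both vg_simj arrays above all 6 others. The calls were chosen by the difference between vg_simj and simj, and the same share over all probe sets was not computed. Without either simj array or without either vg_simj array the Jig call was lost (adjusted p up to 0.172). The Vajk3 call (up to 0.0667) was lost without simj replicate 2 or either vg_simj array, and the calls of Drs (up to 0.210) and of Vajk2's brighter probe set (up to 0.0704) without either simj array or vg_simj replicate 1. The Drs call was also lost with the 75th percentile filter (0.171) and with no intensity trend (0.0736).

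CG14852 had the largest called log2 change, from 6.2 and 1.6 on the simj arrays to 3383 and 1697 on the vg_simj arrays (8.57 ± 1.5, adjusted p = 0.0426). Its vg arrays read 671 and 12.1, so replicates differed widely in that group. The summed level of 13 salivary gland markers, a tissue that dissected discs can carry along, was also uneven, with 16396 and 2415 on the vg_simj arrays, 3991 and 3210 on the simj arrays and 6459 and 1121 on the vg arrays. Drs and Jig were likewise higher on vg_simj replicate 1 than on replicate 2. On the vg arrays Drs read 24.4 and 20.7 and Jig 7.2 and 1.5. The part of salivary gland tissue in the CG14852, Drs and Jig results was not tested. The CG14852 call was lost when any lacZ, simj or vg_simj array was left out (adjusted p up to 0.268), with the 75th percentile filter (0.352) and with no intensity trend (0.0971). TwdlE, a cuticle protein gene of the Tweedle family, rose from 317 and 209 to 1586 and 2017 (2.78 ± 0.27, adjusted p = 0.00416) and kept its call with each array left out. The RING finger gene Rnf11 gave different answers on its probe sets. The dimmer rose from 91.5 and 129.5 to 559 and 734 (2.53 ± 0.30, adjusted p = 0.00867, lost without simj replicate 1 or either vg_simj array, up to 0.0882), whereas the brighter, already at 3298 and 5054 in simj discs, was at 6899 and 7013 in vg_simj discs and was not called (0.77 ± 0.31, adjusted p = 0.257).

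**Figure D2:**
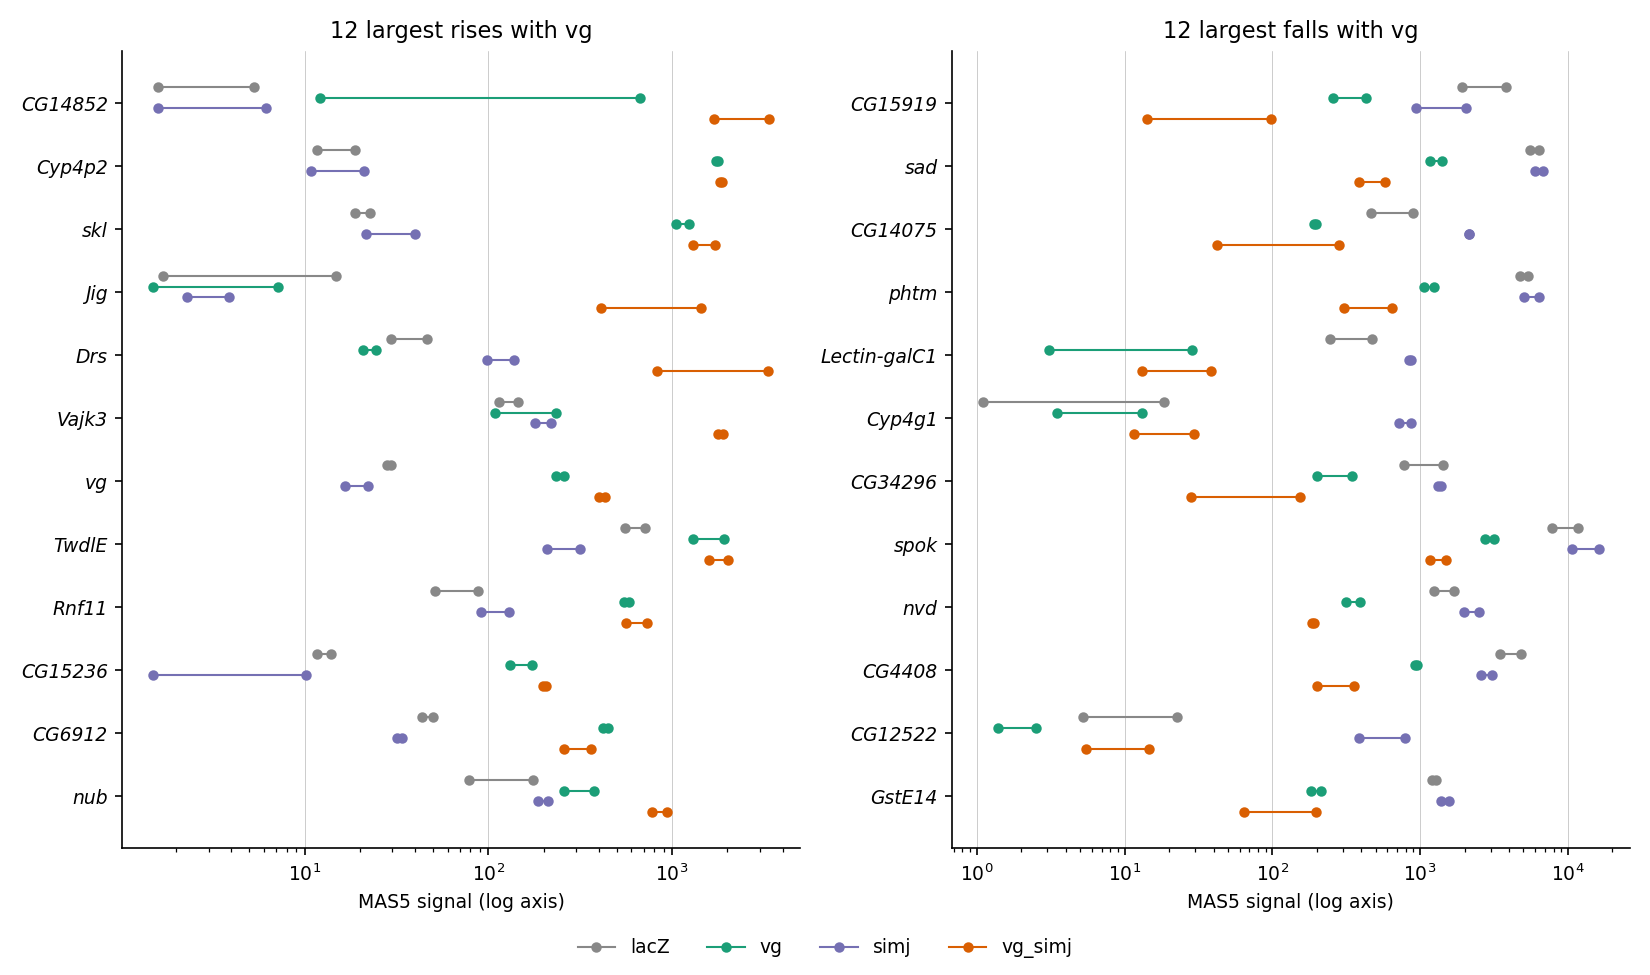
Signals (log axis) on each of the 8 arrays for the genes with the largest called rises and falls in vg_simj against simj, 1 point per array and coloured by group. For Cyp4p2 and skl the vg and vg_simj points lie together at the top, and for Cyp4g1 and CG12522 the simj points stand alone above all others.

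Among 19 measured genes of the wing pouch, the part of the wing disc that forms the blade, 3 rose and 0 fell, and the median change was 0.38 beside 0.05 over all probe sets. One of the 3 was the transgene vg itself. The POU-domain gene nub, which marks the wing pouch, had signals of 185 and 210.1 on the simj arrays and 781 and 943 on the vg_simj arrays (2.11 ± 0.36, adjusted p = 0.0384). The T-box gene bi (optomotor-blind), a target of Dpp signalling in the wing, went from 1418 and 1234 to 2379.9 and 2453 (0.87 ± 0.14, adjusted p = 0.029). For both genes the vg_simj arrays were above all 6 others, and nub on the vg arrays, at 259 and 376, was intermediate. The wing-disc cytochrome P450 gene Cyp310a1 stood at 252 and 430.1 in simj and 968 and 879 in vg_simj, without overlap and without a call (1.48 ± 0.40, adjusted p = 0.139). On 10 of the 19 genes both vg_simj arrays were above both simj arrays, and on 0 below, beside 27.9% and 22.2% of all probe sets. The median was 0.65 without vg_simj replicate 1. The calls of nub and bi were lost without either simj array or without either vg_simj array (adjusted p up to 0.224 and 0.232), which left vg as the 1 called gene of the list. Both calls were also lost with no intensity trend (adjusted p = 0.0861 for nub and 0.0793 for bi), and that of nub with the 75th percentile filter (0.0701). The change of nub differed from that in the absence of simj, 1.39 ± 0.36, by 0.72 ± 0.51, and this difference was not called (adjusted p = 0.996).

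Of 14 measured genes of the wing hinge, notum and dorsal compartment, 0 rose and 1 fell, with a median of -0.13. The gene that fell was vvl (ventral veins lacking), another POU-domain factor, from 537 and 525 on the simj arrays to 213 and 217 on the vg_simj arrays (-1.29 ± 0.20, adjusted p = 0.0281). The vg arrays, at 215 and 283, were nearly as low as the vg_simj arrays. Its call was lost without either simj array or without either vg_simj array (adjusted p up to 0.200) and with no intensity trend (0.063), and a dimmer vvl probe set was not called (-1.22 ± 0.70, adjusted p = 0.396).

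Genes of the retinal determination network, the transcription factors that commit the disc to eye fate, were not called in either direction. Of 10 measured members 9 had a positive change, with a median of 0.54, and on 7 the vg_simj arrays were both above the simj arrays, beside 55.9% and 27.9% of all probe sets. Without vg_simj replicate 2 the median was 0.32. Optix, a Six-family factor, had signals of 884 and 898 in simj and 1379.5 and 1384 in vg_simj (0.63 ± 0.14, adjusted p = 0.0843). The nuclear factor gene dac read 2055 and 1813 in simj and 2573 and 3274 in vg_simj (0.59 ± 0.18, adjusted p = 0.174), and so (sine oculis), another Six-family gene, read 525 and 481 in simj and 663 and 765 in vg_simj (0.50 ± 0.15, adjusted p = 0.17). On the simj arrays ey, dac and sine oculis were each below all 4 lacZ and vg arrays. On the vg_simj arrays sine oculis was still below them, while ey and dac overlapped with them. The same 10 genes had a median of 0.04 in vg against lacZ. The Notch pathway list gave 2 rises and 0 falls among 16 genes (median 0.20), both of them Bearded-family genes, whose small proteins inhibit the ubiquitin ligase Neuralized. Tom rose from 4984 and 4597 to 7678 and 7594 (0.67 ± 0.10, adjusted p = 0.0278) and Brd from 2118 and 1965 to 3163 and 3553 (0.72 ± 0.11, adjusted p = 0.0279). For Tom and Brd both simj arrays were below all 6 others. Both calls were lost without either simj array or without either vg_simj array (adjusted p up to 0.237 and 0.232) and with no intensity trend (0.0857 and 0.0806). Without simj replicate 2 the list's median was 0.02.

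Late photoreceptor and neuronal genes were mostly lower in vg_simj than in simj discs, although few passed the test. The receptor tyrosine kinase gene sev (sevenless), which instructs the R7 photoreceptor fate, had signals of 165 and 172 on the simj arrays and 40.5 and 60.5 on the vg_simj arrays (-1.71 ± 0.24, adjusted p = 0.018). Both vg_simj arrays were below all 6 others, and the vg arrays, at 212 and 186, were also below the lacZ arrays, at 436 and 484. Of 17 measured photoreceptor recruitment genes sev was the 1 that fell and 0 rose, and the median was 0.17. Among 10 genes of late photoreceptor differentiation 1 fell, 10 had a negative change, 8 had both vg_simj arrays below both simj arrays, and the median was -0.74. Over all probe sets 44.1% had a negative change and 22.2% had both vg_simj arrays below. With the 75th percentile filter, which tested fewer of these genes, the median was -0.32. In vg against lacZ the median of these 10 was -0.04. Galphaq, which encodes the G protein alpha subunit of phototransduction, went from 1812 and 2041 to 821 and 847 (-1.20 ± 0.20, adjusted p = 0.0349), while 2 dimmer probe sets of it were at -0.99 and -0.81 and were not called. Its called probe set was also lower with vg in discs without simj. It read 1828 and 2167 on the lacZ arrays and 809 and 1219 on the vg arrays, without a call (limma adjusted p = 0.0874). The difference between both vg effects was -0.20 ± 0.28 and was not called (adjusted p = 0.996). The photoreceptor cell adhesion gene chp (chaoptin) read 292 and 197 in simj and 123 and 115 in vg_simj, without a call (-1.0 ± 0.25, adjusted p = 0.117). The sev call was lost without either simj array or vg_simj replicate 1 (adjusted p up to 0.151), and the Galphaq call without either simj array or either vg_simj array (up to 0.253) or with no intensity trend (0.0866).

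Of 21 measured neuronal genes 2 fell and 0 rose, and changes ran from -1.80 to 3.04, the latter not called. On 14 genes both vg_simj arrays were below both simj arrays and on 2 above, beside 22.2% and 27.9% of all probe sets. The median was -0.68, against 0.14 in vg versus lacZ. The size of this median depended on the setting: it was -0.38 with a pseudocount of 16, -0.33 with a pseudocount of 64, -0.31 with the 75th percentile filter and -0.28 without simj replicate 1. The neuronal ankyrin gene Ank2 had signals of 956 and 573 in simj and 251 and 176 in vg_simj on its brightest probe set (-1.80 ± 0.28, adjusted p = 0.0278). Its vg_simj arrays were the lowest of the 8, and the lacZ and vg arrays were all above the simj arrays. Its other 3 probe sets were not called, at -0.42, -0.61 and 0.18. The RNA-binding protein gene cpo (couch potato) fell on both of its probe sets, the brighter from 1314 and 958 to 517 and 633 (-0.97 ± 0.17, adjusted p = 0.0466) and the dimmer from 302 and 242 to 90.5 and 122 (-1.34 ± 0.22, adjusted p = 0.0328). The zinc-finger gene nerfin-1, which acts in early neurons and was named after its values were seen, fell from 284 and 311 to 64.1 and 114 (-1.76 ± 0.29, adjusted p = 0.0315). By contrast elav, a general neuronal gene, read 1134 and 909.6 in simj and 822 and 1183 in vg_simj, so the groups overlapped (-0.04 ± 0.20, adjusted p = 0.932). The call of the brighter cpo probe set was lost when any of the 8 arrays was left out (adjusted p up to 0.178), that of Ank2 without simj replicate 1 or either vg_simj array (up to 0.177) and that of nerfin-1 without either simj array or vg_simj replicate 1 (up to 0.232). With no intensity trend all 3 calls were lost (adjusted p = 0.102 for cpo, 0.0752 for Ank2 and 0.0793 for nerfin-1), that of nerfin-1 was also lost under quantile normalization (0.059), and that of cpo with only the 4 arrays compared (0.0592). No gene was called among 20 axon guidance and adhesion genes (median -0.17) or 13 glial genes (median -0.22, and 0.25 with the 75th percentile filter).

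**Figure D3:**
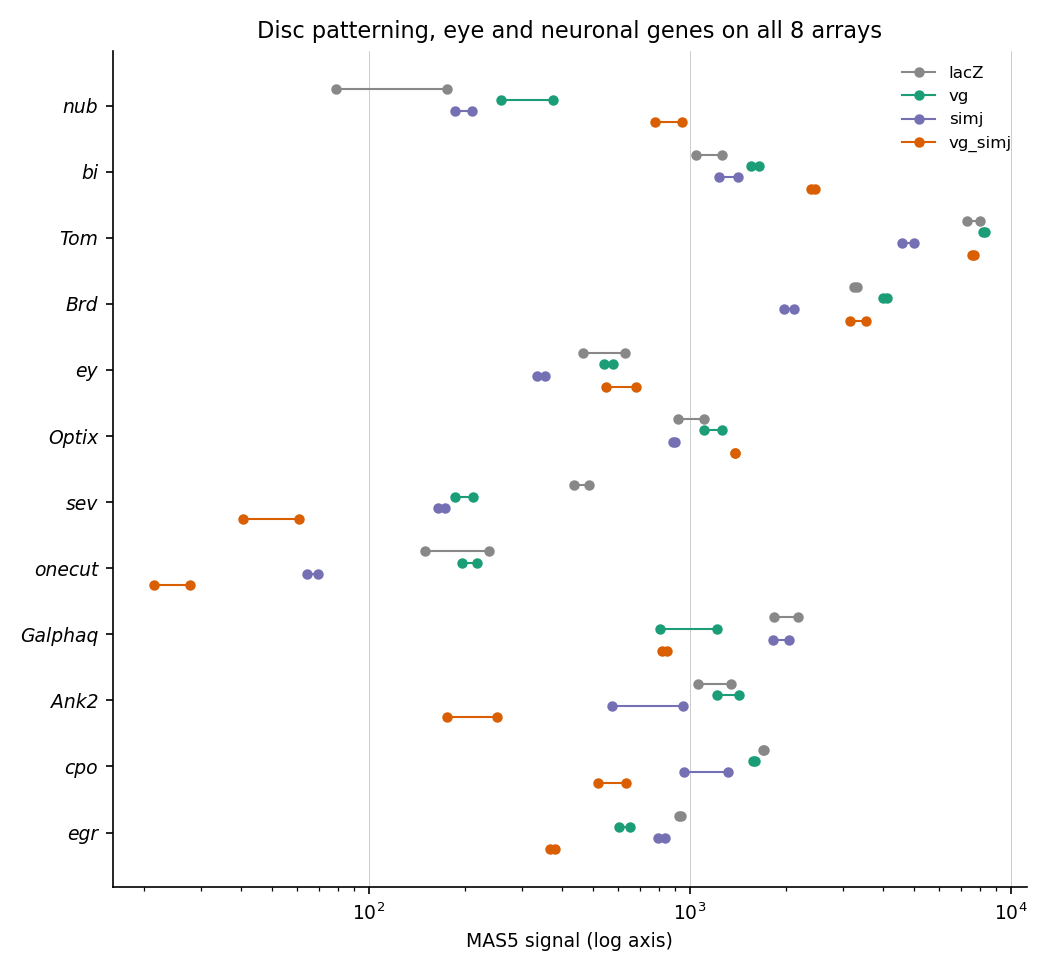
Signals (log axis) on each of the 8 arrays, 1 point per array and coloured by group, for wing, eye, Notch pathway, photoreceptor, neuronal and damage genes. All are described in the text except the photoreceptor recruitment gene onecut, which was not called. The vg_simj points of nub and bi are above all others, and those of sev and Ank2 are below all others.

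Of the lists, the one with the most called falls was that of the ring gland, an endocrine organ of larvae whose products are ecdysone and juvenile hormone. Of 16 measured markers 11 fell and 0 rose, 15 had both vg_simj arrays below both simj arrays, beside 22.2% of all probe sets, and the median change was -2.68. In vg against lacZ the same list had 10 falls and a median of -1.96. Without either simj array 6 of the markers were called in vg_simj against simj. The cytochrome P450 gene sad (shadow), an enzyme of ecdysone synthesis, had signals of 5984 and 6762 on the simj arrays and 579 and 388 on the vg_simj arrays (-3.74 ± 0.20, adjusted p = 0.000187). The Rieske oxygenase gene nvd (neverland), which acts at the first step of that pathway, went from 1971 and 2498 to 193 and 186 (-3.53 ± 0.20, adjusted p = 0.000229). For both genes the vg_simj arrays were the lowest of the 8, below the vg arrays, at 1400.0 and 1173 for sad and 317 and 391 for nvd. The P450 genes phtm (phantom) and spok (spookier), of the same pathway, fell from 5065 and 6416 to 643 and 306 (-3.68 ± 0.31, adjusted p = 0.00174) and from 10608 and 16230.3 to 1492 and 1162 (-3.31 ± 0.26, adjusted p = 0.00134). The sterol transport genes Start1 and Npc1a fell by 2.53 and 1.80 (adjusted p = 0.000276 and 0.000594), and GstE14 (noppera-bo), a glutathione transferase gene of ecdysone synthesis, went from 1376 and 1569.9 to 198 and 64.1 (-3.67 ± 0.43, adjusted p = 0.00867). The calls of sad, nvd, phtm, spok, Start1 and Npc1a held with each array left out, while that of GstE14 was lost without either simj array (adjusted p up to 0.0874).

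The summed level of the 16 ring gland markers was 46246 and 52862 on the simj arrays and 7998 and 6739 on the vg_simj arrays, against 39043 and 46396 on the lacZ arrays and 11942 and 12167 on the vg arrays. In these bulk samples, fewer cells of a type and less RNA per cell cannot be told apart, and the amount of ring gland in each sample was not measured otherwise. The same 16 markers included jhamt and Akh, genes of other endocrine cells of that gland, and both were lower. The juvenile hormone enzyme gene jhamt of the corpora allata fell from 1049 and 1026 to 159 and 62.4 (-3.34 ± 0.50, adjusted p = 0.0249), and Akh, the adipokinetic hormone gene of the corpora cardiaca, read 1903 and 1476 in simj and 341 and 66.3 in vg_simj without a call (-3.45 ± 0.66, adjusted p = 0.0567). The jhamt call was lost without either simj array or vg_simj replicate 2 (adjusted p up to 0.174) and with no intensity trend (0.0736). Of 21 ecdysone response genes 0 rose and 1 fell. Their median was 0.14 but ran from -0.06 to 0.32 with 1 array left out, and was negative without simj replicate 2 or vg_simj replicate 2. The 1 that fell was Oatp74D, the ecdysone importer, from 4635 and 5182 to 2225 and 2273 (-1.12 ± 0.18, adjusted p = 0.0294, lost without either simj array or either vg_simj array, up to 0.232, and with no intensity trend, 0.0847).

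Haemocyte and muscle markers were mostly lower as well. Of 17 haemocyte markers 2 fell, 15 had both vg_simj arrays below both simj arrays, beside 22.2% of all probe sets, and the median was -1.29, against -1.43 and 2 falls in vg versus lacZ, with a summed level of 18645 and 33529 on the simj arrays and 10491 and 8787 on the vg_simj arrays. The plasmatocyte gene Hml (hemolectin) went from 800.0 and 1482 to 234 and 188 (-2.36 ± 0.33, adjusted p = 0.0182) and the GATA factor gene srp (serpent) from 434 and 452 to 83.4 and 112 (-2.17 ± 0.35, adjusted p = 0.0291). Neither gene overlapped between the groups, and the vg arrays were low for both. Without simj replicate 2 or either vg_simj array the Hml call was lost (adjusted p up to 0.148), and the srp call was lost without either simj array or either vg_simj array (up to 0.214). With no intensity trend both were lost (0.0588 for Hml and 0.0736 for srp). None of 13 muscle and myoblast markers was called, although 9 had both vg_simj arrays below both simj arrays, beside 22.2% of all probe sets (median -0.87, and -0.58 in vg against lacZ), with a summed level of 63959 and 77139 in simj and 42601 and 36741 in vg_simj. The 9 fat body markers had 0 calls and a median of -0.01, or -1.3 with the 75th percentile filter, with summed levels of 16336 and 17745 in simj and 8104 and 7097 in vg_simj. Among the largest falls, Lectin-galC1, a galactose-binding lectin gene, went from 872 and 847 to 38.7 and 13.1 (-5.07 ± 0.78, adjusted p = 0.0278), and Hand, a bHLH factor of heart and lymph gland named after its values were seen, from 678 and 884 to 129.8 and 71.4 (-2.97 ± 0.33, adjusted p = 0.00731). Both genes were low on the vg arrays, with Lectin-galC1 at 3.1 and 28.6 and Hand at 74.4 and 79.1. The Lectin-galC1 call was lost without either simj array or either vg_simj array (adjusted p up to 0.200), with the 75th percentile filter (0.174) and with no intensity trend (0.0752), and the Hand call without simj replicate 2 (0.0819). How far attached tissue contributed to any of these falls was not tested.

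Several of the largest falls were in genes with no marker list. CG15919 went from 2035 and 933 on the simj arrays to 98.7 and 14.1 on the vg_simj arrays (-5.06 ± 0.79, adjusted p = 0.0283), CG34296 from 1326 and 1378 to 28.3 and 154 (-4.28 ± 0.68, adjusted p = 0.029) and CG4408 from 2585 and 3089 to 359 and 202 (-3.38 ± 0.27, adjusted p = 0.00155). On all 3 genes the vg_simj arrays were below every other array. CG14075 fell from 2139 and 2129 to 283 and 42.1 (-4.24 ± 0.73, adjusted p = 0.0402), with vg_simj replicates far apart. The gene cu (curled), the fly nocturnin, was named after its values were seen and fell from 6012 and 7440.4 to 1145 and 738 (-2.86 ± 0.24, adjusted p = 0.00168). The calls of CG4408 and cu held with each array left out. Those of CG15919 (adjusted p up to 0.15) and CG34296 (up to 0.201) were lost without either simj array and without vg_simj replicate 2 or vg_simj replicate 1 respectively, and that of CG14075 (up to 0.237) without either simj array or vg replicate 2. With no intensity trend the calls of CG15919 (0.0806), CG34296 (0.081) and CG14075 (0.0977) were lost.

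A further set of falls consisted of genes that were high in simj discs and near background elsewhere. Cyp4g1 and CG12522 were below the array medians on both vg_simj arrays, 42.7 and 37.9, and passed the signal filter only through the simj arrays. Cyp4g1, the cytochrome P450 gene that makes cuticular hydrocarbons in oenocytes, had signals of 716 and 872 on the simj arrays and 11.6 and 29.6 on the vg_simj arrays (-5.20 ± 0.90, adjusted p = 0.0402). On the lacZ arrays it read 1.1 and 18.5 and on the vg arrays 3.5 and 13.2, so the simj arrays stood alone. CG12522 followed the same order, at 786 and 389 in simj, 14.7 and 5.5 in vg_simj and at most 22.6 on the other 4 arrays (-5.53 ± 0.80, adjusted p = 0.0219). CG32071, named after its values were seen, was another, at 406 and 333 in simj and 47.5 and 45.7 in vg_simj (-2.91 ± 0.43, adjusted p = 0.023). The fatty acid synthase gene FASN3, also of oenocytes, fell from 259 and 320.3 to 29.8 and 37.5 (-3.0 ± 0.31, adjusted p = 0.00599), but its lacZ arrays, at 109.8 and 101, were not at background. Of 7 measured oenocyte and cuticle markers these 2 fell. The list's median was -1.74, or -1.12 with a pseudocount of 64 and -0.48 with the 75th percentile filter, while its summed level was 9489 and 7671 on the simj arrays and 10412 and 8450 on the vg_simj arrays, so the groups overlapped. Of the 102 called falls, 44 had both simj arrays above all 6 others and 54 had both vg_simj arrays below all 6 others. Being called for a difference between these 2 groups favours such extremes, and the shares over all probe sets were not computed. The calls of Cyp4g1, CG12522 and CG32071 were lost without either simj array or either vg_simj array (adjusted p up to 0.308, 0.187 and 0.201), and that of FASN3 without either simj array (up to 0.0858). The Cyp4g1 call was also lost with a pseudocount 0.1 times as large (0.101), with the 75th percentile filter (0.820) and with no intensity trend (0.0771).

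Cell death genes were mostly higher in vg_simj discs, while damage genes went in both directions. Of 9 cell death genes 8 had a positive change, 5 had both vg_simj arrays above both simj arrays and 0 below. Over all probe sets these shares were 55.9%, 27.9% and 22.2%. Apart from skl, no other gene of 9 in the cell death list was called, and the list's median was 0.17, running up to 0.32 without vg_simj replicate 2. The TNF ligand gene egr (eiger), which activates JNK signalling, fell from 796 and 840.3 on the simj arrays to 366 and 380.1 on the vg_simj arrays (-1.13 ± 0.13, adjusted p = 0.00739). Its vg_simj arrays were below all 6 others, and the call was lost without either simj array or vg_simj replicate 1 (adjusted p up to 0.0819). A dimmer egr probe set, at 56.9 and 85.6 in simj and 29.9 and 90.9 in vg_simj, overlapped between the groups and was not called (-0.39 ± 0.56, adjusted p = 0.756). Ilp8, the insulin-like peptide released by damaged or overgrowing discs, read 165 and 157 in simj and 851 and 449 in vg_simj, without overlap and without a call (1.92 ± 0.65, adjusted p = 0.197). That change was called with a pseudocount of 64 and with only the 4 arrays compared. Without simj, Ilp8 rose from 4.2 and 29.6 on the lacZ arrays to 218 and 300 on the vg arrays and was called (4.10 ± 0.65, limma adjusted p = 0.0367). In vg_simj against simj, egr was the 1 call among 17 genes of the JNK, TNF and damage list (median -0.04), of which 6 had a positive and 11 a negative change. Of 14 innate immunity genes Drs rose and Tep4, a thioester-containing protein gene, fell from 4323 and 5302 to 2199.8 and 2261 (-1.10 ± 0.13, adjusted p = 0.00867, lost without simj replicate 2 or either vg_simj array, up to 0.0819). Tep4 read 2618.5 and 2887 on the lacZ arrays and 2332 and 2257 on the vg arrays, so both simj arrays were above all 6 others.

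The remaining disc lists had 0 calls in either direction. Beside 0.05 over all probe sets, their medians were 0.13 for 20 Dpp and activin genes, 0.11 for 8 Wingless genes (-0.07 without simj replicate 2 and 0.26 without vg_simj replicate 1), 0.27 for 14 Hedgehog genes, 0.13 for 15 EGF receptor genes, 0.15 for 16 Hippo and Fat genes, 0.03 for 20 antennal and leg genes and 0.09 for 6 NuRD genes. Of the 14 Hedgehog genes 12 had a positive change, and on 8 the vg_simj arrays were above the simj arrays and on 0 below. Among 29 cell cycle and replication genes 27 had a positive change, with a median of 0.20, and on 12 the vg_simj arrays were above the simj arrays and on 0 below. Over all probe sets these shares were 55.9% with a positive change, 27.9% above and 22.2% below. The 3 measured Hox genes had a median of 0.13.

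**Figure D4:**
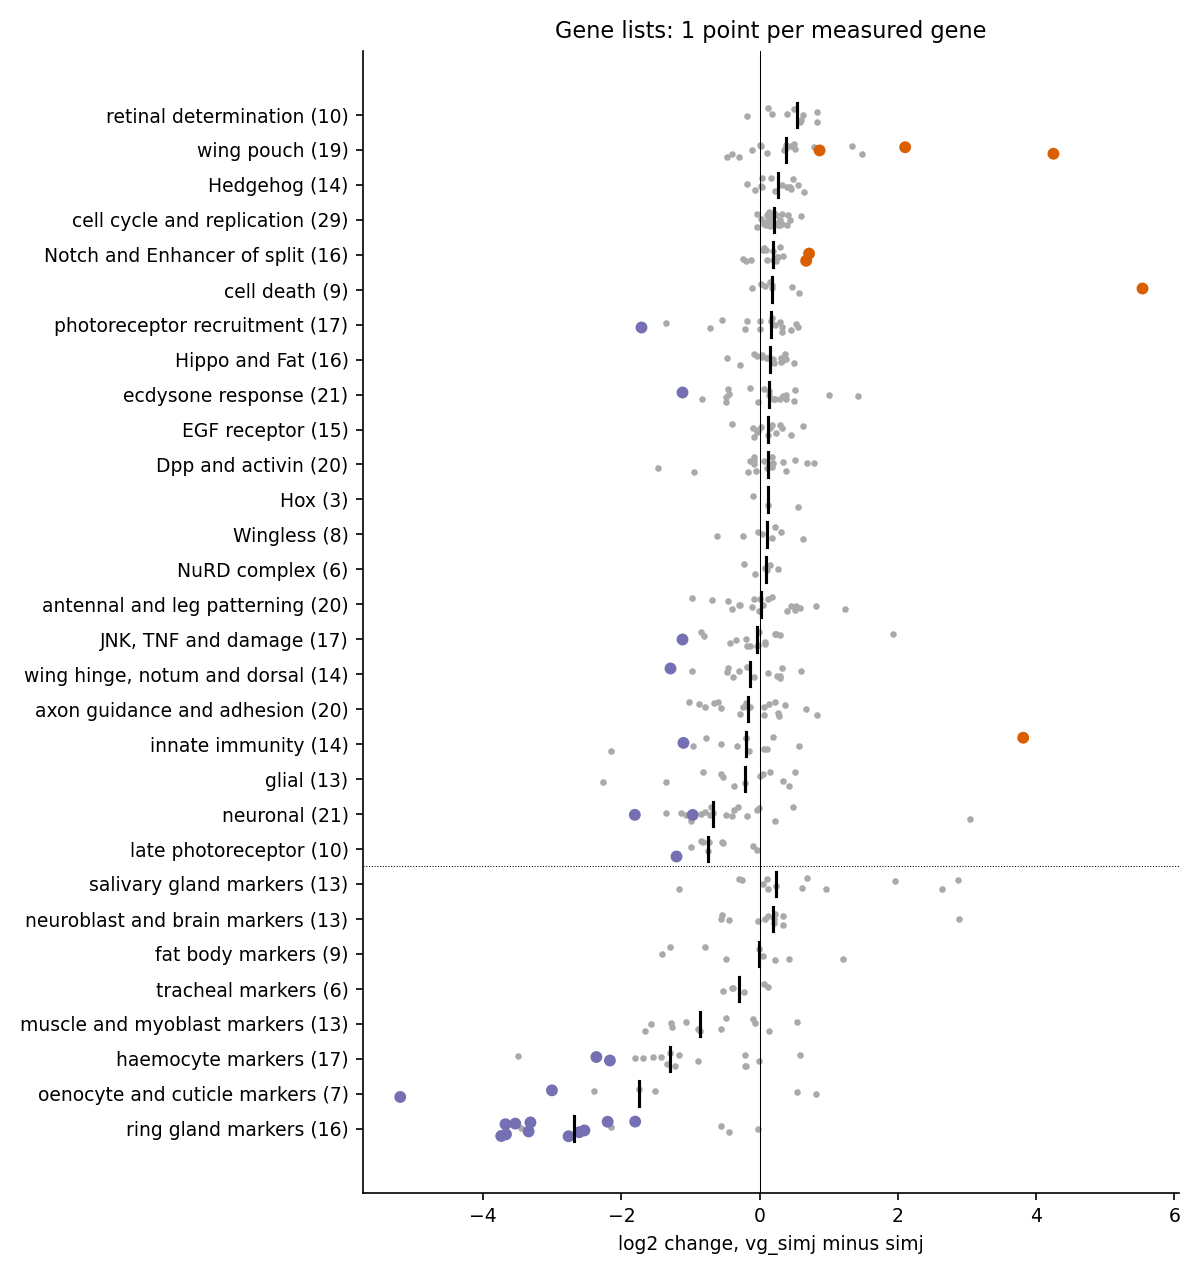
Log2 changes of vg_simj minus simj for the measured members of each gene list, 1 point per gene, with called members coloured and the list's median marked; the axis is log2(signal + 2.8). The ring gland list is shifted furthest, with 11 of 16 members called lower and a median of -2.68, and most signalling lists centre near the median of all probe sets.

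The vg effect in simj discs was set beside that of vg against lacZ, whose group means come from none of the same arrays. Both tests took their variance from the same fit over all arrays, so their calls were not independent. The probe sets were also filtered by signal on the simj and vg_simj arrays. On these 9565 probe sets limma called 78 in vg against lacZ (0.815%), of which 26 were higher (0.272%) and 52 lower (0.544%). Leaving out lacZ replicate 1, lacZ replicate 2 or vg replicate 2 brought these 78 down to 37, 26 or 39. Both comparisons called 46 probe sets in the same direction, 12 higher and 34 lower, which is 33.8% of the 136 and 59.0% of the 78, and 0 in opposite directions. Of the 136 probe sets called in simj discs 129 (94.9%) had the same sign in vg against lacZ, beside 68.4% of all probe sets. Across all probe sets the changes of the 2 comparisons had a Pearson correlation of 0.63 and a Spearman correlation of 0.51, given as a description over probe sets that share arrays and intensity. The median size of the change over the 136 was 1.86 in simj discs and 1.10 without simj, and 119 of the 136 were larger in simj discs, the comparison that chose them.

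The difference between both vg effects was tested as an interaction, which called 5 probe sets (0.0523%), with 380 at an unadjusted p under 0.05. In 3 of them, each named after its values were seen, the fall with vg was larger in simj discs. The midkine family gene miple1 had signals of 422 and 363 on the simj arrays and 14.2 and 13.1 on the vg_simj arrays (-4.58 ± 0.17), and of 958 and 1005 on the lacZ arrays and 547 and 609 on the vg arrays (-0.76 ± 0.17). The methuselah-like receptor gene mthl8 went from 317 and 267 to 5.1 and 3.5 with simj (-5.38 ± 0.25) and from 414 and 438 to 235 and 198 without it (-0.97 ± 0.25). CG31207 went from 333 and 366 to 27.2 and 26.6 with simj (-3.57 ± 0.18) and from 454 and 435 to 271 and 275 without it (-0.70 ± 0.18). All 3 genes fell with vg to near background in simj discs and in vg discs stood between the lacZ and the vg_simj discs. The differences were -3.82 ± 0.24 for miple1 (limma adjusted p = 0.00364), -4.41 ± 0.35 for mthl8 (adjusted p = 0.01) and -2.87 ± 0.25 for CG31207 (adjusted p = 0.0127). A second mthl8 probe set also fell in simj discs (-2.59 ± 0.31, adjusted p = 0.00888), but its difference of -1.44 ± 0.43 was not called. The number of interaction calls was 0 without simj replicate 1 (286 at an unadjusted p under 0.05), 1 without simj replicate 2 or vg replicate 2, 2 without lacZ replicate 2 or either vg_simj array, and 10 without lacZ replicate 1.

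**Figure D5:**
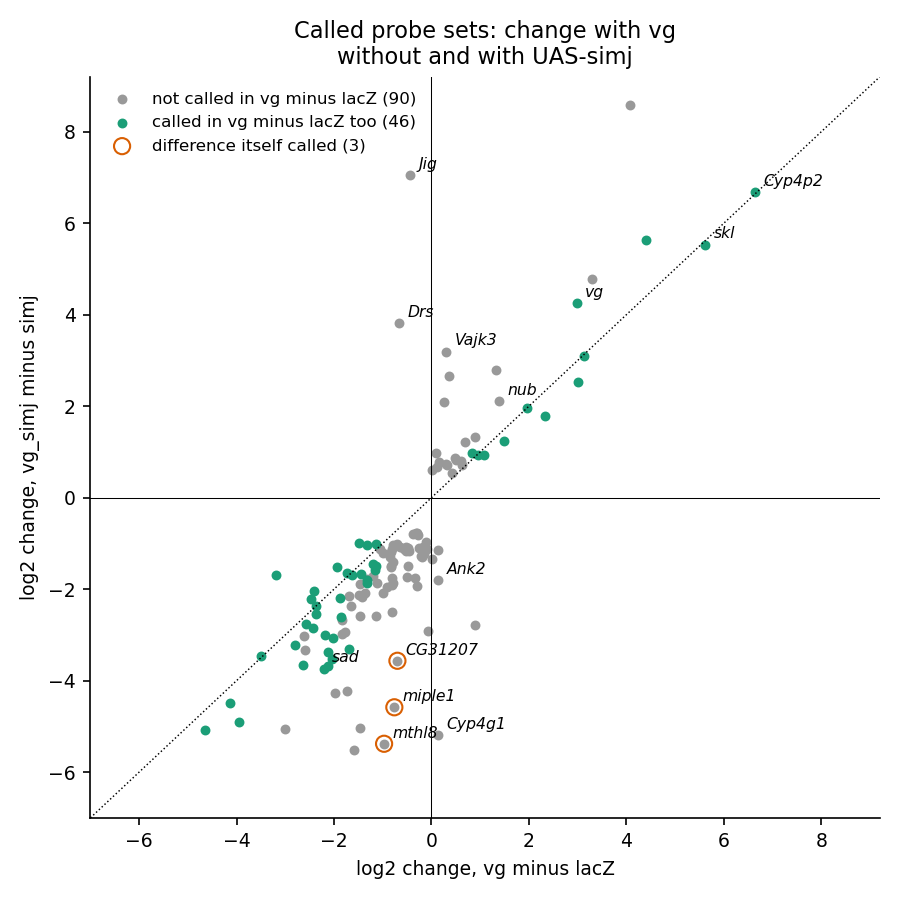
Log2 change with vg in simj discs (vg_simj minus simj) against the change with vg in discs without simj (vg minus lacZ). Only the 136 probe sets called in vg_simj against simj are shown, on axes of log2(signal + 2.8) with the line of equal change. Most called probe sets lie in the quadrants of equal sign, and miple1, mthl8 and CG31207 lie below the line among the falls.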

How the data were processed

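RNA from 8 samples of eye-antennal discs was hybridised to Affymetrix arrays, and the authors deposited 1 linear intensity value per probe set and array, made with MAS5 per the submitters' processing notes, with no version given in the sources used here. No detection calls were used, which leaves low signals and background undistinguished, and the number of arrays limits the precision. The scale was log2(signal + 2.8), with the 10th percentile of the signals as pseudocount, which understates the change of dim genes. The 4 groups of all 8 arrays entered 1 limma fit (version 3.58.1, R 4.3.3; eBayes with intensity trend, 4 residual and 3.72 prior degrees of freedom), with two-sided tests of 3 contrasts. The code was tested on simulated data. Of 18952 probe sets 183 were controls. The platform annotation gave 1 symbol to 13647, several to 402 and none to 4903. Old symbols were replaced by those of the reference table, in which 103 found no gene; phantom and the ecdysone importer were matched by current symbol. List genes without such a probe set were not analysed here.

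The probe sets, lists and naming rule were chosen with earlier results of these data known. The naming rule took vg, simj and ey, and the 12 largest rises and 12 largest falls on the log2(signal + 64) scale. The rises and falls were taken among calls with 1 symbol, no overlap and a higher group mean above 100. Per list the rule took up to 6 called members or, with fewer than 2 called, the 2 members with the smallest p. Many of the uncalled list members taken by the rule are not described in the text. Other named genes are given as chosen after their values were seen or as values of a list. A list gene was represented by its brightest probe set. Alternatives were other pseudocounts, filters and normalizations, no trend, only the 4 arrays compared, the replicate number as a block and each array left out. Same-numbered arrays deviated together with correlations from 0.0513 to 0.469, and the labels do not say that a number marks a shared day or batch.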

Additional observations from a re-analysis of the deposited data

Results flagged for a closer look

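The change with vg differed between discs with and without simj on 5 probe sets, by the interaction test of limma. The difference, as vg_simj minus simj less vg minus lacZ, was -3.82 for miple1 (adjusted p = 0.00364), -4.41 for mthl8 (adjusted p = 0.0100), -2.87 for CG31207 (adjusted p = 0.0127), -4.32 for the brighter probe set of Rnf11 (adjusted p = 0.0239) and 2.24 for a probe set without a gene symbol (adjusted p = 0.0239). The Rnf11 probe set read 87.1 and 43.5 on the lacZ arrays, 2318 and 2067 on the vg arrays, 3298 and 5054 on the simj arrays and 6899 and 7013 on the vg_simj arrays, so it was high wherever either transgene was present. The probe set without a symbol was higher on both lacZ arrays than on the other 6, which lay close together. On these 5 probe sets the interaction call did not hold with each array left out: without simj replicate 1 the count of interaction calls was 0.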

How the results depend on the processing

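With 1 array left out, the count of calls in vg_simj against simj ran from 8 to 35 higher and from 18 to 139 lower, the interaction count from 0 to 10, and the count in vg against lacZ from 26 to 86. With a filter above the 75th percentile the counts were 18 higher, 52 lower, 2 in the interaction and 48 in vg against lacZ, and with no intensity trend they were 18, 56, 3 and 48; the filter tested fewer probe sets. With only the 4 arrays compared, 45 were called higher and 295 lower, and the contrasts that need the other arrays could not be computed. With the replicate block the counts were 40 higher, 170 lower, 5 and 110, and all 136 calls were kept; the numbers are not known to pair the arrays. Other pseudocounts, filters and normalizations gave 118 to 151 calls. Of 569 list medians recomputed under the alternatives, 542 moved by less than the spread between replicates. Of 63 called gene probe sets followed, 18 kept their call in every setting that kept the probe set, among them those of vg, Cyp4p2, skl, TwdlE, sad, phtm, spok, nvd, Start1, Npc1a and miple1. The uncalled change of Dfd ran from -0.23 to 0.0448 over single arrays left out, turning positive without simj replicate 1 (0.0448) and without vg_simj replicate 1 (0.0420). The causes were not tested. Low signals, 2 arrays per group and missing detection calls limit what a fold near background can show.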

Other observations

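The following called genes are on none of the lists, and each was named after its values were seen. The sterol-binding gene Npc2a fell from 1564 and 1503 on the simj arrays to 949 and 803 on the vg_simj arrays (-0.81 ± 0.13, limma adjusted p = 0.0297). The steroid dehydrogenase gene spidey fell from 599.7 and 772 to 242 and 210.4 (-1.58 ± 0.18, adjusted p = 0.00867), and the lipid droplet dehydrogenase gene Ldsdh1 from 361 and 352 to 73.0 and 44.9 (-2.58 ± 0.32, adjusted p = 0.0103). For all 3 genes both vg_simj arrays were below all 6 others. The P450 gene Cyp6g2 fell from 329 and 457 to 33.9 and 60.6 (-3.02 ± 0.47, adjusted p = 0.0279), with the vg arrays as low as the vg_simj arrays. Amnionless, an endocytic receptor gene of nephrocytes, read 112 and 183 in simj and 4.7 and 2.8 in vg_simj (-4.50 ± 0.65, adjusted p = 0.0219), and its signals on the vg arrays were also near background. The Npc2a, Cyp6g2 and Amnionless calls were lost without either simj array or either vg_simj array (adjusted p up to 0.200, 0.232 and 0.237), and those of Npc2a and Cyp6g2 also with no intensity trend (0.079 and 0.0673). The spidey call was lost without simj replicate 2 or either vg_simj array (up to 0.0819), and the Ldsdh1 call without either simj array or vg_simj replicate 2 (up to 0.106).

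Among the smaller rises, also named after their values were seen, net, a bHLH gene that represses vein formation in the wing, went from 368 and 366 to 648 and 624 (0.79 ± 0.14, adjusted p = 0.0466), crok, a septate junction gene, from 3642 and 3709.9 to 8214 and 6356 (0.97 ± 0.14, adjusted p = 0.0191), and the spliceosome gene ncm from 882 and 943 to 1801 and 2599.6 (1.24 ± 0.18, adjusted p = 0.0197). Their vg arrays read 583 and 569 for net, below both vg_simj arrays, 7945 and 7344 for crok and 2429 and 2259.8 for ncm. With 1 array left out, the calls of crok (adjusted p up to 0.149) and ncm (up to 0.131) were lost without either simj array and without vg_simj replicate 1 or vg_simj replicate 2 respectively, and that of net (up to 0.268) without any vg, simj or vg_simj array. With no intensity trend all 3 calls were lost (0.079 for net, 0.0717 for crok and 0.0658 for ncm). The net call was also lost with no filter on low signals (0.0667), with the 75th percentile filter (0.0688) and with only the 4 arrays compared (0.053).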
